A study of Mus musculus with 8 samples.

Results

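The genes described here are the adult globins Hbb-bs, Hbb-bt, Hba-a1 and Hba-a2 and the erythroid haem synthesis gene Alas2. They were chosen by gene name, with earlier results of these data known. All 5 were present among the 14133 genes of the deposited table. RNA was sequenced from whole CT26 tumours, which are mouse colon carcinoma cells implanted under the skin of male mice of the strain written BABL/C in the labels. Of the 8 tumours, 4 came from mice injected with the beta-adrenergic receptor blocker propranolol and 4 from mice that received PBS (control). All 8 carry the genotype label WT. Per the labels' protocols, propranolol was injected into the peritoneum daily once tumours measured 70 to 100 cubic millimetres. The sources used here give no dose, day of collection or age. Although the design text mentions duplicates, the titles number 4 tumours per group, and those 4 were used as replicates. No label says that each number is a separate animal, so p-values measure only the spread between these samples.

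Haemoglobin, the oxygen carrier of red cells, is built from alpha and beta globin chains, each holding a haem group. Alas2 encodes the erythroid form of 5-aminolevulinate synthase, which makes the first committed intermediate of haem in developing red cells; other cells use Alas1. Reticulocytes, the youngest red cells in blood, have lost their nucleus but still hold globin mRNA. Globin genes and Alas2 are classical targets of the erythroid transcription factors GATA1 and KLF1.

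Library totals were between 15483409 and 17511937 counts. Expression is given as CPM of the TMM-scaled library size, a scaling that corrects for differences in library composition. Genes were compared with edgeR's quasi-likelihood test, with p-values adjusted over the 14006 genes tested. A call required an adjusted p under 0.05. No gene of the table met that, a background of 0%. At an unadjusted p under 0.05 the test gave 273 genes, 1.95% of those tested, and 100 of them, 0.714%, were lower in propranolol tumours. The labelled tissue, colon carcinoma, was checked against 9 colon epithelial markers. Of these, 4 were in the table, among them the cytokeratins Krt20 (106 ± 35.8 CPM in propranolol and 92.8 ± 41.9 CPM in control tumours) and Krt18 (10.6 ± 6.71 CPM in propranolol and 13.8 ± 4.03 CPM in control tumours, SD, n = 4 each). The other two were low, Krt8 at 2.13 ± 1.82 CPM in propranolol and 4.55 ± 6.36 CPM in control tumours, and the epithelial cadherin Cdh1 at 1.52 ± 1.24 CPM in propranolol and 1.26 ± 0.59 CPM in control tumours (SD, n = 4 each). The remaining 5, the defining Epcam, Krt19, Vil1, Cdx1 and Cdx2, were not in the table, where every gene exceeds 1 CPM in at least 2 tumours. Most of the 9 markers were thus low or absent, and the label is borne out by Krt20 and Krt18 alone.

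All 5 genes had a lower fitted level in propranolol than in control tumours, with log2 fold changes of -1.33 to -0.93, in a table where 50.6% of genes had a fold change below 0. Of the 5, 0 passed the adjusted threshold. At an unadjusted p under 0.05, 3 of the 5 (Hbb-bs, Hbb-bt and Alas2) were lower, beside 0.714% of all genes in that direction. The 3 are not independent, since the genes varied together across tumours (r = 0.984 for Hbb-bs and Hbb-bt), and the count is a description. DESeq2 gave the same count of 3, beside 0.736% of its genes. With limma-voom the count was 2 of 5 (Hbb-bs and Alas2), beside 111 of 14006 genes. With the tumour number as a block it was 2 of 5 (Hbb-bs and Alas2), beside 1.49% of all genes. Leaving out 1 tumour at a time moved that count in either direction. It was 0 of 5 without propranolol tumour 2 (beside 1.34% of all genes), propranolol tumour 4 (0.996%) or control tumour 4 (0.783%), and 1 of 5 without propranolol tumour 1 (0.499%) or control tumour 3 (0.682%). It was 3 of 5 without control tumour 1 (0.796%) and 4 of 5 without propranolol tumour 3 (1.88%) or control tumour 2 (0.575%). In these bulk samples, fewer erythroid cells and less globin RNA per cell cannot be told apart.

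The beta-globin genes lie side by side on the minus strand of chromosome 7 (build GRCm39). Hbb-bs (ENSMUSG00000052305, chr7:103475741-103477303) and Hbb-bt (ENSMUSG00000073940, chr7:103461731-103463203) encode the s and t adult beta chains. Their names belong to the beta-globin haplotype of C57BL/6, the strain of the reference genome. BALB/c mice carry another haplotype, so reads from such mice are counted here only where they align to the C57BL/6 gene models; the size of that effect was not tested. In the GENCODE M21 transcripts the coding sequences of Hbb-bs and Hbb-bt, 444 bases each, differ at 1 position, C417T, counted from the A of the start codon of Hbb-bs. Both codons encode alanine. The stretch around that base shows how little there is to tell the coding parts of the pair apart; the differing base is in capitals.
Hbb-bs: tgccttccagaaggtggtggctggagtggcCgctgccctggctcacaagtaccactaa
Hbb-bt: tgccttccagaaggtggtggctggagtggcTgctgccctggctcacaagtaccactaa
Of all windows of 100 bases in the Hbb-bs transcript, 62.6% occur letter for letter in the Hbb-bt transcript, and 54.8% of those of Hbb-bt occur in Hbb-bs. How the deposited counting treated reads that match both is unknown here, so each single gene is uncertain and the sum of the pair is given beside it. The sum does not depend on how shared reads were split between the copies. It would still lack any shared reads that were left uncounted, so sums are uncertain too.

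Hbb-bs measured 13.8, 11.5, 31.8 and 14.3 CPM in propranolol tumours 1 to 4, against 26.3, 19.1, 45 and 86.9 CPM in control tumours 1 to 4. Propranolol tumour 3 lay inside the control range, and the other 3 lay below every control tumour. The means were 17.8 ± 9.41 CPM in propranolol and 44.3 ± 30.4 CPM in control tumours (SD, n = 4 each). The log2 fold change was -1.31 (SE 0.54, 95% interval -2.56 to -0.07), with an unadjusted p of 0.0413 and an adjusted p of 0.999 from edgeR. The fold change of Hbb-bs was -0.76 (SE 0.43; edgeR unadjusted p = 0.118) without control tumour 4. An exact two-sided permutation test of log2 CPM gave p = 0.0857, where the smallest p that 4 against 4 allows is 0.0286.

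Hbb-bt followed Hbb-bs at a lower level. It measured 4.18, 2.72, 7.57 and 2.85 CPM in propranolol tumours 1 to 4, against 5.85, 4.49, 9.78 and 23.3 CPM in control tumours 1 to 4. Again 3 propranolol tumours lay below every control tumour and propranolol tumour 3 overlapped the controls. The log2 fold change was -1.33 (SE 0.56, 95% interval -2.61 to -0.04), with an unadjusted p of 0.0450 and an adjusted p of 0.999 from edgeR. Without control tumour 4 the fold change of Hbb-bt was -0.63 (SE 0.42; edgeR unadjusted p = 0.167). The sum of Hbb-bs and Hbb-bt averaged 22.2 ± 11.6 CPM in propranolol and 55.2 ± 39.0 CPM in control tumours (SD, n = 4 each), a log2 fold change of -1.32 (SE 0.55; edgeR adjusted p = 0.999), and of -0.73 (SE 0.43) without control tumour 4. In the authors' deposited table, Hbb-bs and Hbb-bt are marked as down with log2 fold changes of -1.31 and -1.33, as are 0.120% of its genes. All 17 genes so marked there have an unadjusted p of at most 0.0473 and a log2 fold change of -1.07 or below. Alas2, at -0.93 with an unadjusted p of 0.0253 in that comparison, is not marked. The adjusted p in the authors' deposited table is 0.9997 for Hbb-bs and Hbb-bt.

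The alpha-globin genes lie on the plus strand of chromosome 11 (build GRCm39), Hba-a1 (ENSMUSG00000069919) at chr11:32233511-32234465 and Hba-a2 (ENSMUSG00000069917) at chr11:32246489-32247298. Their coding sequences, 429 bases each in GENCODE M21, also differ at 1 position, C381T counted from the start codon of Hba-a1, and both codons encode aspartate. The same kind of stretch is shown, with the differing base in capitals.
Hba-a1: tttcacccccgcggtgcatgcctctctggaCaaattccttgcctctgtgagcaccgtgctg
Hba-a2: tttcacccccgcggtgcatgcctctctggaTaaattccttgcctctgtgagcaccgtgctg
Windows of 100 bases shared letter for letter made up 56.5% of the Hba-a1 transcript and 74.5% of the Hba-a2 transcript.

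Hba-a1 measured 14.6, 9.58, 26.4 and 9.29 CPM in propranolol tumours 1 to 4, against 20.2, 14.1, 28.8 and 70.8 CPM in control tumours 1 to 4. Only propranolol tumours 2 and 4 lay below every control tumour. The means were 15 ± 8.01 CPM in propranolol and 33.5 ± 25.6 CPM in control tumours (SD, n = 4 each). The log2 fold change was -1.16 (SE 0.57, 95% interval -2.48 to 0.16; edgeR adjusted p = 0.999), and the exact permutation test gave p = 0.143. The fold change of Hba-a1 was -0.49 (SE 0.41) without control tumour 4.

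Hba-a2 was the globin with the fewest counts, 9 to 55 in propranolol and 21 to 154 in control tumours. It measured 1.98, 0.53, 3.39 and 1.15 CPM in propranolol tumours 1 to 4, against 1.84, 1.19, 2.12 and 8.85 CPM in control tumours 1 to 4. Propranolol tumour 3 exceeded 3 of the 4 control tumours, and the control mean of 3.50 ± 3.59 CPM (propranolol 1.76 ± 1.23 CPM, SD, n = 4 each) rested on control tumour 4. The log2 fold change was -0.99 (SE 0.73; edgeR adjusted p = 0.999), and 0.03 (SE 0.57) without control tumour 4. The sum of Hba-a1 and Hba-a2 averaged 16.7 ± 9.21 CPM in propranolol and 37.0 ± 29.2 CPM in control tumours (SD, n = 4 each), a log2 fold change of -1.15 (SE 0.59; edgeR adjusted p = 0.999), and of -0.45 (SE 0.42) without control tumour 4.

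**Figure D1:**
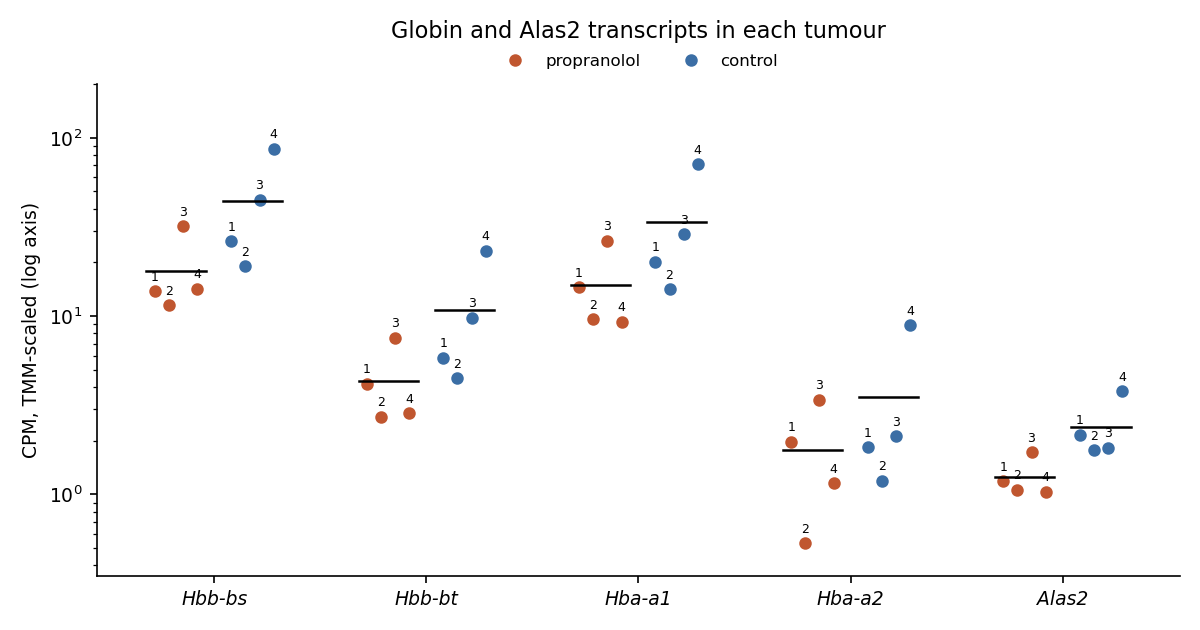
CPM on a log axis for each gene in each tumour, propranolol in orange and control in blue; small numbers are the tumour numbers and black lines the group means (n = 4). Control tumour 4 is highest for every gene, propranolol tumour 3 is the highest propranolol tumour for every gene, and the groups are apart only for Alas2.

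Alas2 (ENSMUSG00000025270, chrX:149330371-149353634, plus strand, build GRCm39) was the gene of the 5 whose groups did not overlap. It measured 1.19, 1.06, 1.72 and 1.03 CPM in propranolol tumours 1 to 4, against 2.16, 1.76, 1.83 and 3.79 CPM in control tumours 1 to 4. The gap between the highest propranolol and the lowest control tumour, 1.72 and 1.76 CPM, was narrow. Every propranolol tumour was below every control tumour in 128 of the 14006 genes, 0.914%. The groups were also apart in CPM of the unscaled library totals and in FPKM, which also divides by gene length. The means were 1.25 ± 0.32 CPM in propranolol and 2.39 ± 0.95 CPM in control tumours (SD, n = 4 each), and the log2 fold change was -0.93 (SE 0.34, 95% interval -1.69 to -0.16), with an unadjusted p of 0.0223 and an adjusted p of 0.999 from edgeR. The exact permutation test gave p = 0.0286, the smallest it can give for 4 against 4.

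The Alas2 values rest on few reads, 21, 18, 28 and 17 counts in propranolol tumours 1 to 4 and 34, 31, 31 and 66 counts in control tumours 1 to 4. The exact 95% Poisson interval of the 28 counts in propranolol tumour 3, 18.6 to 40.5, contains the counts of 3 of the 4 control tumours. Intervals of this kind cover counting error only. Without control tumour 4 the log2 fold change of Alas2 was -0.61 (SE 0.31; edgeR unadjusted p = 0.0801).

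Taking the 4 globins as 1 quantity, propranolol tumours 1 to 4 held 34.5, 24.3, 69.2 and 27.6 CPM, against 54.3, 38.8, 85.8 and 190 CPM in control tumours 1 to 4. Control tumour 4 stood at more than any other tumour, and propranolol tumour 3 above 2 of the control tumours. The means were 38.9 ± 20.7 CPM in propranolol and 92.2 ± 68.0 CPM in control tumours (SD, n = 4 each), with a log2 fold change of -1.25 (SE 0.56, 95% interval -2.56 to 0.07; edgeR adjusted p = 0.999). Without control tumour 4 the log2 fold change was -0.62 (SE 0.42), and without propranolol tumour 3 it was -1.68 (SE 0.56).

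**Figure D2:**
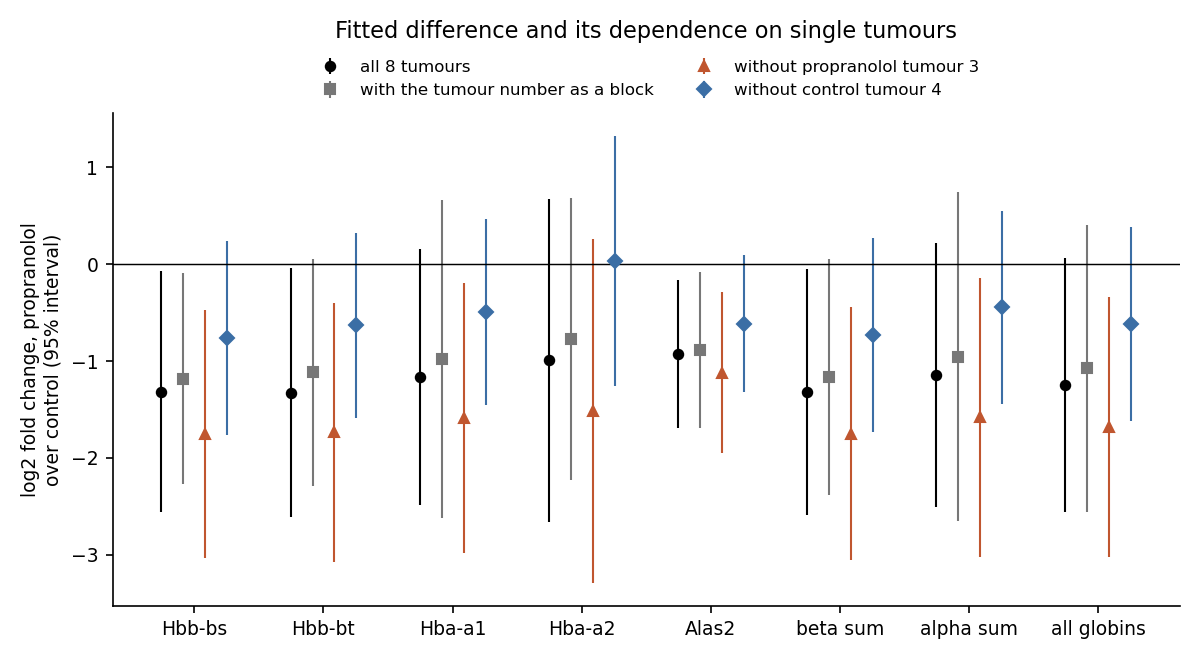
Log2 fold change of propranolol over control from edgeR with 95% intervals, for each gene and for the summed globins, in the fit of all 8 tumours, with the tumour number as a block, and without propranolol tumour 3 or control tumour 4. Points move towards 0 without control tumour 4, where Hba-a2 reaches 0.03, and away from it without propranolol tumour 3, where Hbb-bs reaches -1.75.

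Same-numbered tumours were compared as a description only, since the numbers are not said to pair animals. Their deviations from the group means correlated at 0.19, 0.31, 0.51 and 0.28 over all tested genes. Propranolol tumours 1 and 4 correlated more with control tumours 4 and 1 (0.38 and 0.31). Within the 4 numbers, Hbb-bs in propranolol tumours was 0.52, 0.60, 0.71 and 0.16 times its level in the control tumour of the same number. Alas2 was 0.55, 0.60, 0.94 and 0.27 times that level. Hbb-bt and Hba-a1 were likewise lower in 4 of 4 numbers, beside 6.40% of all genes. Hba-a2 was lower in numbers 2 and 4, at 0.45 and 0.13 times, and higher in numbers 1 and 3, at 1.07 and 1.6 times. Number 4 had the lowest ratio for each of the 5 genes, and number 3 the highest.

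Levels of different genes were compared per length, in the deposited FPKM. These depend on how reads that match both copies of a pair were counted, which is unknown here. For the beta globins they also depend on how reads of another haplotype aligned. The order below is therefore one of deposited values, and its relation to transcript levels was not tested. In FPKM the order of the medians over the 8 tumours was Hbb-bs (29.9), Hba-a1 (21.8), Hbb-bt (7.43), Hba-a2 (2.92) and Alas2 (0.71). Hbb-bs exceeded Hba-a1 in 7 of 8 tumours, by 0.43 ± 0.23 on the log2 FPKM scale (SD over tumours; exact sign-flip test, adjusted p = 0.0156 over 4 neighbours). In propranolol tumour 1 they were level, at 18.4 FPKM each. Each later neighbour was lower in 8 of 8 tumours (exact sign-flip test, adjusted p = 0.0104), by 1.51 ± 0.10 from Hba-a1 to Hbb-bt, 1.56 ± 0.48 from Hbb-bt to Hba-a2 and 2.04 ± 0.77 from Hba-a2 to Alas2. Neighbours were set by mean FPKM in these same tumours, so the sign-flip p-values are a description and give the order no support. Hbb-bs stood between the 74.0th percentile of all genes in propranolol tumour 2 and the 97.5th in control tumour 4.

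The make-up of the globin transcripts was compared next, since a share does not depend on the total. The shares still depend on how reads that match both copies of a pair were counted, which is unknown here. Shares and ratios that include beta globins also depend on how reads of another haplotype aligned, which was not tested. Hba-a1 made up 88.1%, 94.7%, 88.6% and 89.0% of alpha-globin counts in propranolol tumours 1 to 4, against 91.6%, 92.2%, 93.1% and 88.9% in control tumours 1 to 4. Hbb-bs made up 76.7%, 80.8%, 80.8% and 83.3% of beta-globin counts in propranolol tumours 1 to 4, against 81.8%, 80.9%, 82.2% and 78.9% in control tumours 1 to 4. The groups overlapped in both shares. The exact (Clopper-Pearson) 95% interval for the 94.7% of propranolol tumour 2 was 90.2% to 97.6%.

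Alpha globins made up 48.0%, 41.6%, 43.1% and 37.9% of all globin counts in propranolol tumours 1 to 4, against 40.7%, 39.4%, 36.1% and 42.0% in control tumours 1 to 4. The means differed by 3.10 percentage points, 42.6 ± 4.17% in propranolol and 39.5 ± 2.53% in control tumours (SD, n = 4 each; exact permutation p = 0.286, adjusted p = 0.771 over 4 measures of make-up). Alas2 stood at 3.51 ± 0.79 counts per 100 globin counts in propranolol and 3.16 ± 1.29 in control tumours (SD, n = 4 each; exact permutation p = 0.714, adjusted p = 0.771). It was 2.49 in propranolol tumour 3 and 2.13 and 2.0 in control tumours 3 and 4, the tumours with most globin, which is the denominator of this ratio. For the Hba-a1 and Hbb-bs shares the exact permutation test gave p = 0.429 and p = 0.771 (adjusted p = 0.771 for both).

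**Figure D3:**
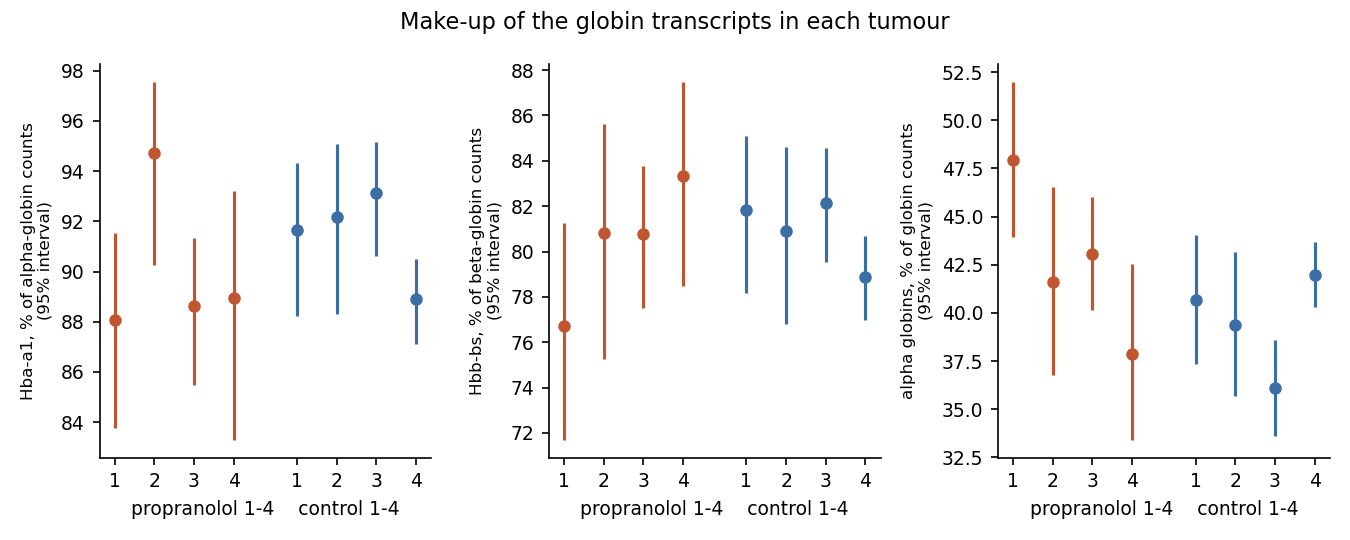
Share of Hba-a1 in alpha-globin counts, of Hbb-bs in beta-globin counts and of alpha globins in all globin counts, in percent, for propranolol tumours 1 to 4 (orange) and control tumours 1 to 4 (blue), with exact 95% binomial intervals. Groups overlap in each panel, and the y axes do not start at 0.

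The 5 genes varied together across tumours. Over the 8 tumours the log2 CPM of Hba-a1 and Hbb-bt had Pearson's r = 0.996 (exact permutation adjusted p = 4.96e-04 over 10 pairs of genes) and Spearman's rho = 0.952 (adjusted p = 0.00570). Leaving out the 2 tumours farthest from the median of Hba-a1 gave r = 0.989, and r was 0.996 for deviations from the group means. Hbb-bs and Hbb-bt had r = 0.984 (exact permutation adjusted p = 4.96e-04) and rho = 0.976 (adjusted p = 0.00397), with r = 0.942 without the 2 farthest tumours. Of the 10 pairs, Hba-a2 and Alas2 had the lowest r, 0.83 (exact permutation adjusted p = 0.0150) with rho = 0.667 (adjusted p = 0.0831). It was 0.355 without control tumour 4 and propranolol tumour 2, so that relation rests on those tumours. The coding sequences within the alpha and beta pairs are nearly identical, and all values share the same libraries.

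Promoter sequences are shown because the 5 genes varied together. Each line gives the 250 bases before the RefSeq transcription start, 5′ to 3′ on the strand of the gene (build GRCm38.p6, which differs from that of the counts). Capitals mark every match, on either strand, to GATAA (the core of GATA sites), CACCC (the core of KLF1 sites), CCAAT or TATAA; adjoining matches run together. Hbb-bs is chr7:103827929-103828178 (minus strand), Hbb-bt is chr7:103813924-103814173 (minus strand), Hba-a1 is chr11:32283422-32283671 (plus strand) and Alas2 is chrX:150547167-150547416 (plus strand).
Hbb-bs: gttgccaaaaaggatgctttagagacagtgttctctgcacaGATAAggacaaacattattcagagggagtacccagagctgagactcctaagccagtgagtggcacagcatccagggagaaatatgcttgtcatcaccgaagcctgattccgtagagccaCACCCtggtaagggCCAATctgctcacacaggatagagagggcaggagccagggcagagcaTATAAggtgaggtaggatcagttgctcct
Hbb-bt: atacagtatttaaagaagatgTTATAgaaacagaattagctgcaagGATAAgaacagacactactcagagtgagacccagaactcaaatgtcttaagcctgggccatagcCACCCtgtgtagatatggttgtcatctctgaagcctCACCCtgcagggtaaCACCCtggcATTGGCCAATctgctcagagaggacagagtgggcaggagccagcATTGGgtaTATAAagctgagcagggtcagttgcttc
Hba-a1: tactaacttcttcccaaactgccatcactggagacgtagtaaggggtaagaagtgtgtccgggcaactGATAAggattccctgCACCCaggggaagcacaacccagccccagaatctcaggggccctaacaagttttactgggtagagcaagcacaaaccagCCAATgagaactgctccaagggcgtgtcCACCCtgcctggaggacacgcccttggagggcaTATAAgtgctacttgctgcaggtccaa
Alas2: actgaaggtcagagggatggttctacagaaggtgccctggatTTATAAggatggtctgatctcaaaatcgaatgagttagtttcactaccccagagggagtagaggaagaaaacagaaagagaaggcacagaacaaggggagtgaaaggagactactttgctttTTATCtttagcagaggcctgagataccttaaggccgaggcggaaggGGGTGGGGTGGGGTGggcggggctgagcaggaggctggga
The Hba-a2 window shares 247 of its 250 bases with that of Hba-a1 in 1 unbroken run and is not printed.

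The globin windows each held all 4 motifs, with a forward TATAA between 27 and 30 bases before the start and a forward CCAAT between 75 and 91 bases before it. Their GATAA matches began 182 to 209 bases before the start. The Alas2 window held GATAA on the reverse strand 86 bases before the start and a run of 3 reverse CACCC matches from 40 bases before it, with no CCAAT. Of 32851 promoter windows of that length, 22.6% held GATAA, 52.0% CACCC, 33.8% CCAAT and 22.8% TATAA on either strand, and 0.968% held all 4. A match to these letters is a description of the sequence and does not show that a factor bound there.

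The other genes of haem and red cell biology were set beside them by role. The 8 enzymes of haem synthesis that all cells use were all tested, 4 with a higher and 4 with a lower fitted level in propranolol tumours, and 0 passed. Their median log2 fold change was -0.00405, beside -0.00218 over all genes and -1.16 over the 5 genes described here. Ppox, which oxidises protoporphyrinogen, averaged 31.8 ± 3.15 CPM in propranolol and 27.6 ± 3.31 CPM in control tumours (SD, n = 4 each; log2 fold change 0.21, SE 0.12). Cpox, the enzyme before it, averaged 62.4 ± 8.67 CPM in propranolol and 68.5 ± 7.33 CPM in control tumours (SD, n = 4 each; log2 fold change -0.14, SE 0.12).

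Of 16 genes of haem and iron transport, 14 were tested, 6 higher, 8 lower and 0 past the threshold, with a median log2 fold change of -0.01. Flvcr1, a haem exporter, averaged 36.7 ± 2.22 CPM in propranolol and 41.9 ± 2.65 CPM in control tumours (SD, n = 4 each; log2 fold change -0.19, SE 0.09), and Slc25a39, a mitochondrial carrier, had -0.19 (SE 0.12). Of 9 genes that clear haem and haemoglobin, 7 were tested, 4 higher, 3 lower and 0 past the threshold, with a median of 0.06. Cd163, the macrophage receptor for haptoglobin-bound haemoglobin, averaged 30.4 ± 26.8 CPM in propranolol and 45.5 ± 24.1 CPM in control tumours (SD, n = 4 each; log2 fold change -0.58, SE 0.66), and Blvrb, a biliverdin reductase, had 0.16 (SE 0.10). In the tumours with most globin, Cd163 measured 28.2 CPM in propranolol tumour 3 and 23.2 CPM in control tumour 4, and its highest values were 68.6 CPM in propranolol tumour 1 and 78.0 CPM in control tumour 1.

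Erythroid regulators were present in part. Of 11 listed transcription factors, co-factors and the receptor Epor, 6 were tested, 5 higher, 1 lower and 0 past the threshold, with a median log2 fold change of 0.15. The other 5 were not in the table, and the 6 tested did not include the defining factors Gata1 and Klf1. Lmo2 and Ldb1, which bridge GATA1 and TAL1 on DNA and are also used in other cells, had 0.19 (SE 0.18) and 0.11 (SE 0.10). Of 16 red cell membrane genes 8 were tested, 2 higher, 6 lower and 0 past the threshold, with a median of -0.05. The other 8 were not in the table, and the tested genes did not include the defining Slc4a1. Add2, an adducin of the membrane skeleton, averaged 2.45 ± 1.46 CPM in propranolol and 5.92 ± 5.93 CPM in control tumours (SD, n = 4 each), with its highest value, 14.8 CPM, in control tumour 2 and 3.88 CPM or less in the other 7. Ank1, an ankyrin of that skeleton, had a log2 fold change of -0.42 (SE 0.32).

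Of 15 other late erythroid genes 8 were tested, 4 higher, 4 lower and 0 past the threshold, with a median log2 fold change of -0.01. The other 7 were not in the table. Bpgm, the red cell enzyme that makes 2,3-bisphosphoglycerate, averaged 7.27 ± 0.21 CPM in propranolol and 8.18 ± 1.16 CPM in control tumours (SD, n = 4 each; log2 fold change -0.17, SE 0.16). Car2, a carbonic anhydrase also made outside red cells, had 0.73 (SE 0.48). Of 11 further globin genes, Cygb, a globin of fibroblast-like cells, was the 1 in the table, with 4.29 ± 1.70 CPM in propranolol and 4.51 ± 0.51 CPM in control tumours (SD, n = 4 each). The erythroid and red cell lists lack many of their genes, among them Gata1, Klf1 and Slc4a1. Their medians cover the tested genes only and do not describe red cell genes as a whole. Whether the difference of the 5 genes from these lists exceeds chance was not tested.

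**Figure D4:**
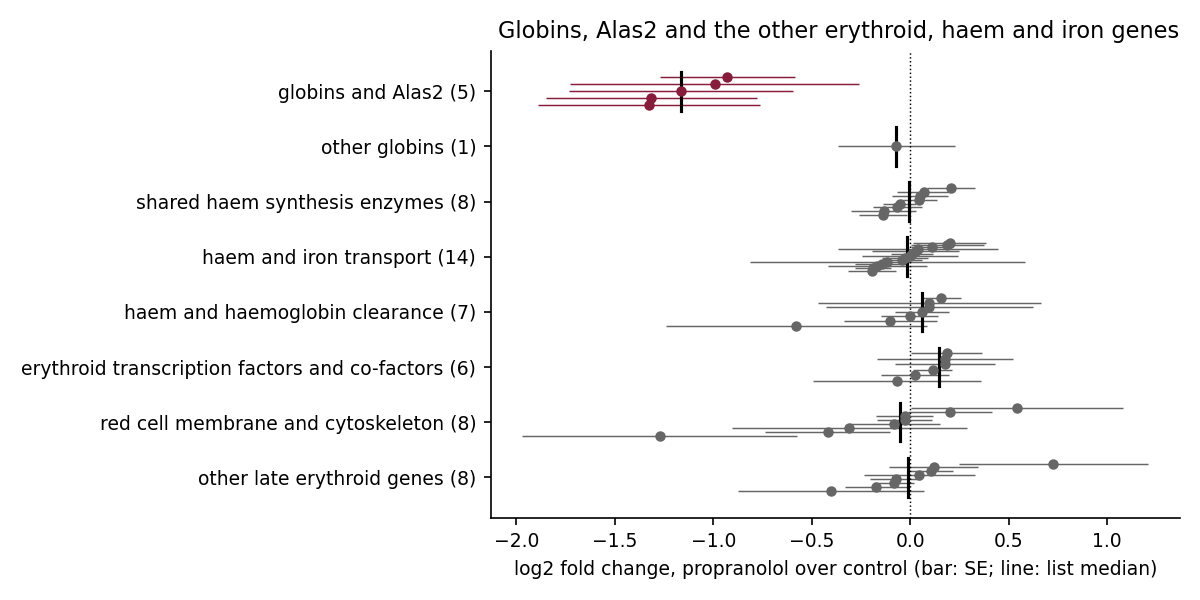
Log2 fold change of propranolol over control with its standard error for each tested gene, by list (number tested in brackets), with the list median as a black line. The globins and Alas2 lie between -1.33 and -0.93, and the medians of the other lists lie between -0.07 and 0.15. Listed genes that were not in the table, among them Gata1, Klf1 and Slc4a1, are not part of these medians.

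Markers of other cells were set beside the globins by tumour. Skeletal muscle markers, 13 of 14 in the table, summed to 116, 11.8, 9.85 and 26.0 CPM in propranolol tumours 1 to 4, against 11.8, 10.4, 35 and 1036 CPM in control tumours 1 to 4. Control tumour 4, highest in globins, was thus highest in muscle transcripts by far, led by Acta1 at 359 CPM and Myh4 at 155 CPM, the actin and a fast myosin of skeletal muscle. Propranolol tumour 3, the highest propranolol tumour in globins, had the lowest muscle sum, with Acta1 and Myh4 at 0 counts. The part of attached muscle in the globin values was not tested.

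Platelet markers, 4 of 12 in the table, summed to 16.8, 23.3, 45.2 and 17.3 CPM in propranolol tumours 1 to 4, against 26.6, 25.3, 38.1 and 25.1 CPM in control tumours 1 to 4. They were highest in propranolol tumour 3 and control tumour 3, and control tumour 4 had the lowest sum of the controls. Pf4, a platelet chemokine that some macrophages also express, stood at 33.4 CPM in propranolol tumour 3, with the remaining propranolol tumours between 6.14 and 12.4 CPM, and between 15.4 and 27.3 CPM in control tumours. Itga2b, the platelet integrin, lay between 6.04 and 9.48 CPM in all 8 tumours. The defining Gp9, Gp6 and Treml1 were not in the table.

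T cell markers, 10 of 10 in the table, summed to 160, 47.9, 8.13 and 216 CPM in propranolol tumours 1 to 4, against 50.8, 25.3, 12.8 and 38.7 CPM in control tumours 1 to 4. Propranolol tumour 3, with most globin of its group, had the fewest T cell transcripts, at 1.05 CPM of Cd8a and 2.16 CPM of the T cell receptor gene Trbc1. Endothelial markers, 11 of 11 in the table, summed to between 197 and 306 CPM in propranolol and between 245 and 295 CPM in control tumours, and the control tumour with most globin, number 4, had the lowest sum among controls. Pecam1 and Cdh5, adhesion proteins of endothelium, stood at 0.09 (SE 0.12) and -0.15 (SE 0.34) as log2 fold changes. Neutrophil markers, 3 of 11 in the table, summed to 9.61 to 39.5 CPM in propranolol and 12.6 to 16.2 CPM in control tumours, led by the G-CSF receptor gene Csf3r (21.7 ± 13.5 CPM in propranolol and 13 ± 2.32 CPM in control tumours, SD, n = 4 each), with the collagenase gene Mmp8 at 1.6 CPM or less in each tumour. Adipose markers, 3 of 8 in the table, summed to 29.1 to 51.2 CPM in propranolol and 34.4 to 50.1 CPM in control tumours; Fabp4, a fatty acid carrier, and Plin4, a lipid droplet protein, stood at -0.23 (SE 0.26) and 0.29 (SE 0.34) on that scale. The part of these cells in the globin values was not tested.

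**Figure D5:**
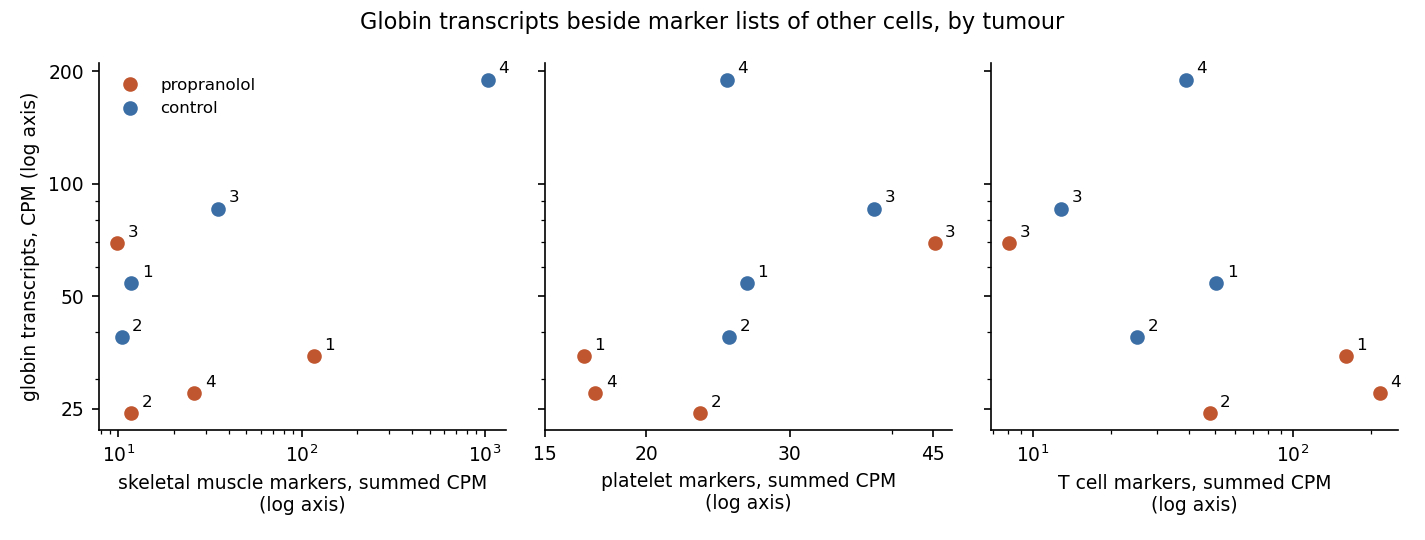
Summed globin CPM (y, log axis) against summed CPM of skeletal muscle, platelet and T cell markers (x, log axes) in each tumour, numbered, propranolol in orange and control in blue. Control tumour 4 stands apart in globins (190 CPM) and muscle (1036 CPM), while propranolol tumour 3 has 69.2 CPM of globin with the lowest muscle and T cell sums.

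Likeness in pattern was measured as Pearson's r over the 8 tumours between a gene's log2 CPM and the mean of the 5 genes' centred log2 CPM, among 13489 genes with a mean log2 CPM of at least 0. The 8 most alike genes were Efemp2 (r = 0.966), Ankrd1 (0.963), Ncbp3 (0.960), Phlda3 (0.955), Traf4 (0.935), Ccn1 (0.928), Fosb (0.927) and Msrb3 (0.917). With so many genes and 8 tumours, values of this size describe these libraries and carry no test. Efemp2, which encodes an extracellular matrix protein, spanned far less than the globins: it averaged 83.9 ± 8.05 CPM in propranolol and 92.4 ± 6.66 CPM in control tumours (SD, n = 4 each). Ccn1, a matricellular protein gene, had the widest span of the 8, with 33.0, 35.6, 104 and 45.9 CPM in propranolol tumours 1 to 4, against 51.6, 34.1, 83.9 and 254 CPM in control tumours 1 to 4. Fosb, an immediate early gene, measured 49.1 CPM in control tumour 4 and 12.1 to 25 CPM in the other 7. Without control tumour 4, r was 0.985 for Efemp2, 0.802 for Ccn1 and 0.790 for Fosb.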

How the data were processed

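The deposited table gives, per the file headers, raw read counts and FPKM for each of 8 tumours. It also holds the authors' own comparison, a deposited log2 fold change with its p-value before and after adjustment. Tools named by the submitters' processing notes are fastp 0.19.3, HISAT2 2.1.0, featureCounts 1.6.2, StringTie 1.3.4d, DESeq2 1.22.1, edgeR 3.24.3 and the build is GRCm39; their roles are not stated. The sources used here do not say whether counting used strand or how it treated reads shared by gene copies. Every gene of the table exceeds 1 CPM in at least 2 tumours.

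Here the counts were tested with edgeR 4.0.16 in R 4.3.3 (TMM, filterByExpr, robust quasi-likelihood, Benjamini-Hochberg at 0.05), leaving 14006 genes and removing 127. Sums of gene copies were refitted in place of the single genes. Single values were compared by exact permutation (scipy 1.17.1) of log2 CPM with a prior count of 2. The alternatives were DESeq2 1.42.0, limma-voom (limma 3.58.1), other scalings, no filter, a replicate block and leaving out each tumour. The edgeR, DESeq2 and limma-voom fits were run on simulated counts with known changes. The exact permutation test between groups and the Benjamini-Hochberg adjustment were checked on values with known answers. Library totals of 15483409 to 17511937 counts leave 17 to 66 counts for Alas2.

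The members and lists were chosen with earlier results of these data known. The named genes are the 5 members, the 2 genes of each pathway list with the smallest p, the 2 most abundant of each marker list and the 8 most alike in pattern; other genes were named after their values were seen or as defining markers. Both groups carry the numbers 1 to 4 in their titles. Deviations from the group means over all tested genes correlated at 0.19, 0.31, 0.51 and 0.28 between same-numbered tumours. Propranolol tumours 1 and 4 each correlated more with the control tumour numbered 4 and 1 (0.38 and 0.31). The main fit and the permutation tests did not pair the samples. The number entered only as a block in an alternative fit and in the ratios of same-numbered tumours. No 2 libraries of a group agreed within sampling noise (chi-square per degree of freedom at least 12.8). RefSeq promoters (GRCm38.p6) and GENCODE M21 transcripts were matched by symbol for all 5 members. Amino acid sequences were not used here.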

Additional observations from a re-analysis of the deposited data

Results flagged for a closer look

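Single tumours stood apart from the other 3 of their group in 8 of 52 groups of values checked with Dixon's test at its 95% level. Chance marks about 5% of groups where these are independent. Here sums contain single genes and the genes varied together, so no excess over that share is read from the 8. For Hba-a2, control tumour 4 measured 8.85 CPM, and the next control tumour 2.12 CPM. For Hbb-bs, propranolol tumour 3 measured 31.8 CPM and the next propranolol tumour 14.3 CPM, and for the beta-globin sum 39.4 CPM and 18 CPM in the next propranolol tumour. The share of Hba-a1 in alpha-globin counts was 94.7% in propranolol tumour 2, where Hba-a2 had 9 counts, and 89.0% in the next propranolol tumour. The summed shared haem synthesis enzymes were lowest in control tumour 2, at 316 CPM, with the next control tumour at 338 CPM. Platelet markers summed to 38.1 CPM in control tumour 3 and 26.6 CPM in the next control tumour. Skeletal muscle markers summed to 116 CPM in propranolol tumour 1, with the next propranolol tumour at 26.0 CPM, and to 1036 CPM in control tumour 4, with the next control tumour at 35 CPM.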

How the results depend on the processing

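With edgeR, DESeq2 and limma-voom, 0 genes passed in all 14 alternatives tried; DESeq2 gave 337 genes and the replicate block 717 at an unadjusted p under 0.05, where the fit without the block gave 273. With the number as a replicate block the log2 fold changes were -1.18 for Hbb-bs, -1.12 for Hbb-bt, -0.98 for Hba-a1, -0.77 for Hba-a2, -0.88 for Alas2 and -1.07 for all globins, and the block changed no call. Of 265 alternative values 261 kept their direction and their side of the threshold, or moved by less than an error set for that value. For gene fold changes that error was the edgeR SE. Their side of the threshold could not change, since 0 genes passed in any fit, so the count does not measure how stable their sizes were. Hba-a1 is among the 261 although it moved from -1.16 (SE 0.57) to -0.49 without control tumour 4. Leaving out 1 tumour at a time gave log2 fold changes of -1.75 to -0.76 for Hbb-bs, -1.74 to -0.63 for Hbb-bt, -1.59 to -0.49 for Hba-a1, -1.51 to 0.034 for Hba-a2, -1.12 to -0.61 for Alas2, -1.58 to -0.45 for the alpha-globin sum, -1.75 to -0.73 for the beta-globin sum and -1.68 to -0.62 for all globins. The value nearest 0, or reversed, came without control tumour 4 and the most negative without propranolol tumour 3. Without control tumour 4 the difference in Alas2 per 100 globin counts turned to -0.039 (range -0.039 to 0.81), without propranolol tumour 1 that in the Hbb-bs share turned to 0.71 percentage points (range -1.49 to 0.71), and without propranolol tumour 3 the median of haem and iron transport genes moved to -0.11 (range -0.11 to 0.040); the cause was not tested. The number of the 5 genes lower at an unadjusted p under 0.05 ranged from 0 to 4 over these fits, and that of all genes from 70 to 264. Depth limits Alas2 and Hba-a2 most, with 17 and 9 counts in their lowest tumours.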
